A study of Homo sapiens with 18 samples.

Results

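The 10 genes described here carry glucose into the cell and along glycolysis: the glucose transporter genes SLC2A1 and SLC2A3, the hexokinase genes HK1, HK2 and HK3, the phosphofructokinase genes PFKL and PFKP with their regulator PFKFB3, and PKM and LDHA at the end of the pathway. The genes were chosen by name, around HK3, because HK3 was among the genes most raised by decitabine (DAC) in HL-60. All 10 were listed in the files of both cell lines, out of 17110 genes for HL-60 and 17475 for MOLM-13. Since the DAC against DMSO difference in HL-60 chose the set, that contrast is given for every member as a description with no test. For HK3, every contrast within HL-60 and between the lines is given in the same way.

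Glycolysis splits glucose into pyruvate. SLC2A1 (GLUT1) and SLC2A3 (GLUT3) let glucose through the plasma membrane, and hexokinases add the phosphate that keeps it inside. HK1 is the widely expressed form, HK2 is induced in many tumours and binds the mitochondrial surface, and HK3 is found mainly in myeloid blood cells, where it comes up as granulocytes mature. Phosphofructokinase performs the committed step, and PFKFB3 makes fructose 2,6-bisphosphate, its main activator. Pyruvate kinase (PKM) forms pyruvate, and lactate dehydrogenase A (LDHA) turns pyruvate into lactate.

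The RNA came from 2 human acute myeloid leukaemia cell lines, the promyelocytic line HL-60 and the monocytic line MOLM-13, each kept for 48 h (day 2) with the solvent dimethyl sulfoxide (DMSO), with DAC, a deoxycytidine analogue that traps DNA methyltransferases, or with NTX-301, a nucleoside analogue of the same class. With 3 replicates per group, the 6 groups came to 18 samples, cultured in RPMI1640 medium with fetal bovine serum. The labels state 15 nM in MOLM-13 and 30 nM in HL-60, in wording that does not settle whether this holds for both drugs, so line and dose cannot be told apart and a matched dose of DAC and NTX-301 is not known. Nothing says that replicates were separate cultures beyond being plated in triplicate, so the p-values measure the spread between these samples only. No DNA methylation was measured.

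Values are the deposited log2 values, which were normalized by the authors and give no read depth. A difference of 1 on this scale is a doubling of the deposited value. Replicates lay close together: the median SD over genes ranged from 0.027 to 0.032 in the HL-60 groups and from 0.037 to 0.043 in the MOLM-13 groups. The labelled lineage was checked against marker genes. Of 9 myeloid leukaemia markers, HL-60 listed 9 and MOLM-13 listed 8, KIT being the one not listed. Among 5 T and B lymphoid markers, 1 was listed in each line (CD79A in HL-60 and CD3D in MOLM-13). No erythroid marker was listed in HL-60, whereas HBB (8.17 to 9.30) and HBA1 (7.51 to 8.31) were listed in MOLM-13. Of 4 stromal or epithelial markers HL-60 listed 0, and MOLM-13 listed KRT18 (9.24 to 9.43) and COL1A1 (5.81 to 6.08). The part of these markers in the results was not tested.

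The 250 bases before the transcription starts of HK3 and PFKL are shown because these members lay on opposite sides of DMSO with both drugs in both lines. HK3 (NCBI Gene 3101) had the highest change of the 10 in all 4 contrasts of a drug with DMSO, and PFKL (NCBI Gene 5211) was lower with either drug in both lines. The sequences are from RefSeq promoter windows in build GRCh38.p14, chr5:176899347-176899596 on the minus strand for HK3 and chr21:44299803-44300052 on the plus strand for PFKL. They read 5′ to 3′, with each CpG, the dinucleotide that DNA methyltransferases act on, in capitals.
HK3: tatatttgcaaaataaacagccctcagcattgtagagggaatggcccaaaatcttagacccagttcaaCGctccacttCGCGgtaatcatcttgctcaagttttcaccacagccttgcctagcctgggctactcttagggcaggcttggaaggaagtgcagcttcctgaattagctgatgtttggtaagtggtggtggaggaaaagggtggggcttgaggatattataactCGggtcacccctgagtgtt
PFKL: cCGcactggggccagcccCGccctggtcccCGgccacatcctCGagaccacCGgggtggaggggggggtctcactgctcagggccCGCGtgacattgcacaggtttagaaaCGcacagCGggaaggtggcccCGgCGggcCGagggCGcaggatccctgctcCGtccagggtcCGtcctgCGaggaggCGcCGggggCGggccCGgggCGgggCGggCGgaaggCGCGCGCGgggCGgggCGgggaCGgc
The HK3 window held 4 CpG with a G+C content of 48.4%, and the PFKL window held 30 CpG with 78% G+C. Over 35116 such windows the median was 11 CpG. Windows with as few CpG as HK3 or fewer made up 34.3% of them, so a CpG count this low was common, and 89.1% had no more than PFKL.

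Promoter windows were found for 9 of the 10 members, with 21 start sites among them, and SLC2A3 is named only. HK1 had 7 start sites whose windows held between 0 and 30 CpG. The single windows of SLC2A1 and PKM held 24 and 28, and both HK2 windows held 29 or more. Of the 9 members, only HK3 had no window with over 4 CpG. In these windows 4 short motifs were searched on both strands. GAGGAA, a core that ETS factors such as PU.1 bind, occurred once in the HK3 window and also in windows of HK1 and PKM, and it was present in 23.6% of all windows. The GC box, GGGCGG, occurred 7 times in the PFKL window and was present in 42.6% of all windows. Searched next, CACGTG, the E-box that MYC and HIF factors can bind, was present in 1 window each of HK2, PFKFB3 and LDHA, and in 6.34% of all windows. TATAAA was present in the SLC2A1 window and in 10.7% of all windows. A match is a description of these letters and not a measured site.

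Across the 10 genes the changes ran in both directions. In MOLM-13, DAC raised 3 members (HK1, HK3 and PFKFB3) and lowered 5 (HK2, PFKL, PFKP, LDHA and SLC2A3) at a limma adjusted p under 0.05. In that contrast 36.6% of all 17475 genes passed (15.4% higher and 21.2% lower), and 49.9% of the genes whose mean value was at least that of the lowest member. With NTX-301 in that line HK1, HK3 and PFKFB3 rose, and HK2, PFKL, PFKP, PKM and LDHA fell, where 45.1% of all genes passed (20.3% higher and 24.8% lower) and 59.2% of those at least as high as the lowest member. The 8 of 10 members called by either drug are to be read against these backgrounds.

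In HL-60, NTX-301 raised HK1 and SLC2A3 and lowered HK2, PFKL, PKM and SLC2A1. These are 6 of the 9 members tested there, where 37.4% of all genes passed (18.3% higher and 19.2% lower) and 50% of those at least as high as the lowest member. For DAC in HL-60, the contrast that chose the set, the threshold was not applied to the members. All DAC samples lay above all DMSO samples for HK1, HK3 and LDHA, and below them for PFKL, PFKP, PKM and SLC2A1. The share of all genes without such overlap was not counted, so this describes single members and not the set. Over all 17046 genes 24.2% passed the threshold in that contrast (11.6% higher and 12.6% lower). That is another measure, and nothing about the members is read from this share. Both drugs share their DMSO samples within a line, so the values of each comparison are given side by side.

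The medians over the members stayed near 0. For DAC they were -0.024 (HL-60) and -0.088 (MOLM-13), and for NTX-301 -0.030 and -0.059, while the median over all genes tested lay between 0.00064 and 0.0034. Since the members moved both ways, they are described in turn, in the order of the pathway.

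**Figure D1:**
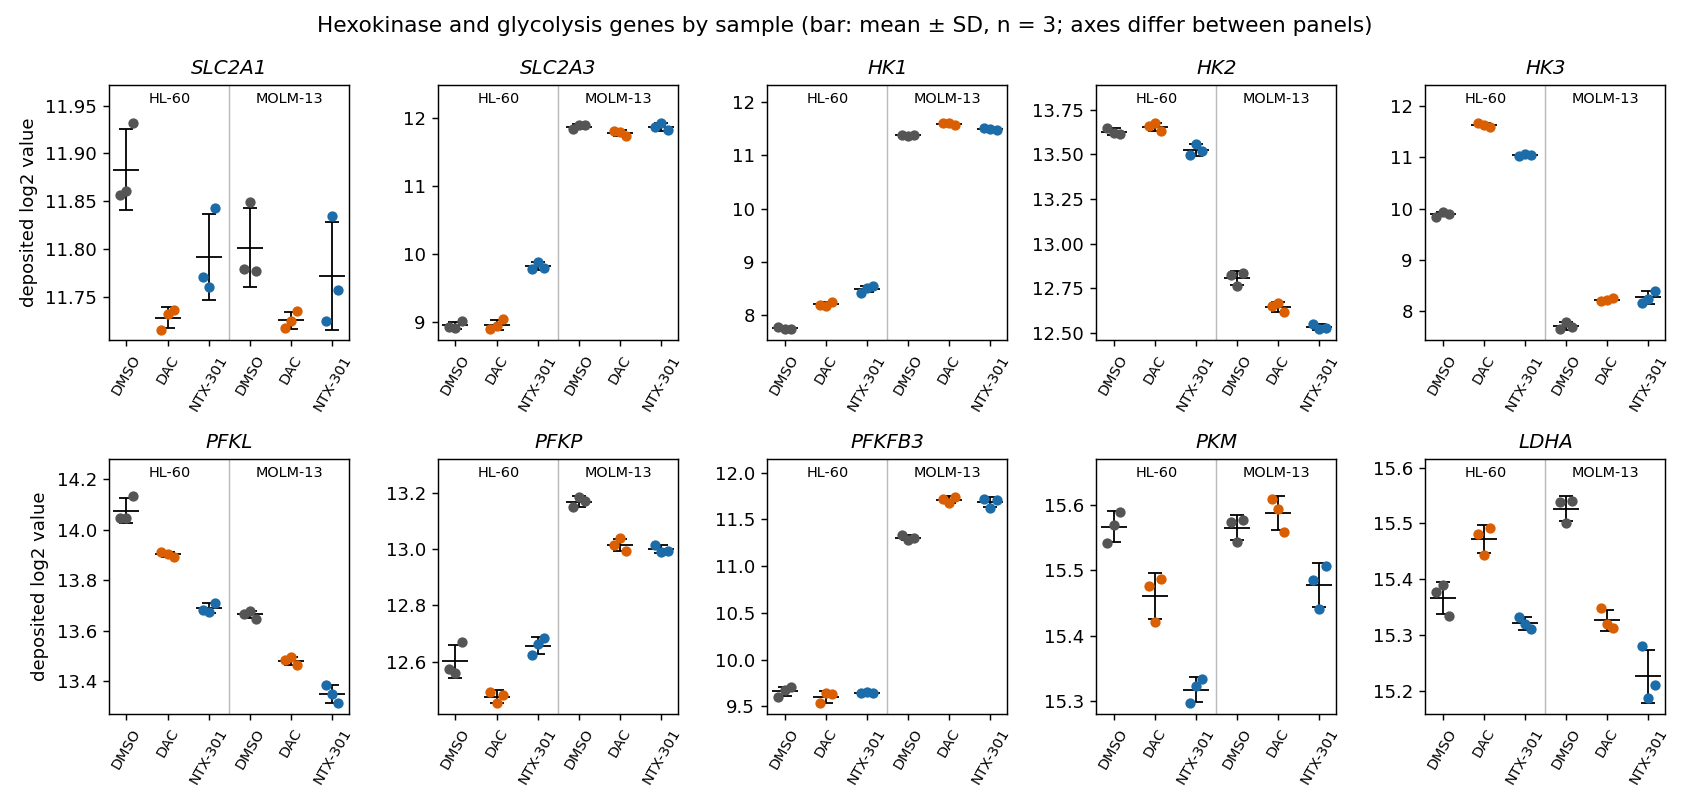
Deposited log2 value of each of the 10 genes (y axis, a different range in each panel) in every sample of HL-60 and MOLM-13 with DMSO, DAC or NTX-301 (x axis). Points are samples and bars are the mean ± SD of 3 replicates. HK3 in HL-60 runs from 9.85 in DMSO to 11.68 with DAC, whereas SLC2A1 stays between 11.72 and 11.93 in all samples.

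Of the glucose transporters, SLC2A3 separated the drugs in HL-60. SLC2A3 (NCBI Gene 6515) stood at 8.92, 8.90 and 9.01 in DMSO, at 8.89, 8.94 and 9.03 with DAC, and at 9.78, 9.88 and 9.78 with NTX-301. DAC samples overlapped the DMSO samples, and the NTX-301 samples lay above all of them. NTX-301 raised it by 0.87 on the log2 scale (SE 0.045, limma adjusted p = 5.18e-09), a 1.83-fold change that placed 34 from the top of 17046 genes. Against DAC the NTX-301 samples were higher by 0.86 (95% interval 0.76 to 0.96, limma adjusted p = 1.41e-08), which placed 5 from the top. The DAC minus DMSO difference was 0.010 (SE 0.045).

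The deposited values of SLC2A3 in MOLM-13 moved little. They stood at 11.83, 11.89 and 11.89 in DMSO, at 11.80, 11.79 and 11.73 with DAC, and at 11.87, 11.93 and 11.81 with NTX-301. DAC lowered it (change -0.099, limma adjusted p = 0.0431), a call that was lost in 7 of 16 alternative settings (leaving out DMSO replicate 2 or 3, DAC replicate 2 or 3, or NTX-301 replicate 1, fitting without a mean-variance trend, and quantile normalization). The NTX-301 change was -0.0016 (SE 0.035, adjusted p = 0.975 by limma). SLC2A14 is a near copy of SLC2A3 and reads can be divided between them. In HL-60 its mean was 4.27 in DMSO and 4.38 with NTX-301 (change 0.11, limma adjusted p = 0.000128), in the same direction as SLC2A3. In MOLM-13 it was at 9.38 in DMSO and rose to 9.73 with DAC (change 0.35, limma adjusted p = 0.000459) and to 9.71 with NTX-301 (change 0.32, limma adjusted p = 0.000516), so the values of the pair are uncertain in both lines.

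SLC2A1 varied little within either line. In HL-60 the GLUT1 gene (NCBI Gene 6513) stood at 11.86, 11.86 and 11.93 in DMSO, 11.72, 11.73 and 11.74 with DAC, and 11.77, 11.76 and 11.84 with NTX-301. In MOLM-13 it stood at 11.78, 11.85 and 11.78, then 11.72, 11.72 and 11.73, then 11.73, 11.83 and 11.76. All treated HL-60 samples lay below the DMSO samples, and in MOLM-13 only the DAC samples did. The HL-60 differences were -0.15 (SE 0.029) with DAC and -0.092 (SE 0.029, limma adjusted p = 0.0213) with NTX-301. The latter call was lost in 4 of 16 alternatives, with limma adjusted p between 0.0791 and 0.0961 (quantile normalization, and without DMSO replicate 3, NTX-301 replicate 1 or NTX-301 replicate 2). In MOLM-13 the changes were -0.076 with DAC (limma adjusted p = 0.0915) and -0.029 with NTX-301 (limma adjusted p = 0.499). The DAC difference there became a call, -0.11 with limma adjusted p = 0.0164, when each sample was centred on its median.

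The hexokinases differed in direction. In MOLM-13 either drug raised HK3, which was also the member furthest above DMSO in HL-60. HK1 was higher with both drugs in both lines, and HK2 fell in 3 of the 3 contrasts with DMSO that were tested.

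In HL-60, HK3 stood at 9.85, 9.93 and 9.90 in DMSO, at 11.68, 11.64 and 11.59 with DAC, and at 11.03, 11.07 and 11.05 with NTX-301. The 3 groups did not overlap, with the NTX-301 samples between the others. DAC minus DMSO was 1.75 (SE 0.031), a 3.35-fold difference that placed 2 from the top of 17046 genes, the value for which the set was chosen. NTX-301 minus DMSO was 1.16 (SE 0.031), or 2.24-fold, 14 from the top. NTX-301 minus DAC was -0.58 (SE 0.031).

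HK3 was tested in MOLM-13. Its values there were 7.66, 7.80 and 7.68 for DMSO, 8.20, 8.22 and 8.25 for DAC, and 8.17, 8.23 and 8.40 for NTX-301. Every treated sample lay above every DMSO sample, and the samples of the 2 drugs overlapped. The rise was 0.51 with DAC (SE 0.066, 1.43-fold, limma adjusted p = 0.000115) and 0.55 with NTX-301 (SE 0.066, 1.47-fold, limma adjusted p = 4.28e-05). These ranked 125 and 120 from the top of 17475 genes. NTX-301 minus DAC was 0.042 (95% interval -0.10 to 0.19, limma adjusted p = 0.765), which does not show that the drugs act alike.

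In HL-60, HK1 (NCBI Gene 3098) stood at 7.78, 7.74 and 7.73 in DMSO, at 8.18, 8.18 and 8.25 with DAC, and at 8.42, 8.52 and 8.54 with NTX-301. The 3 groups did not overlap, and NTX-301 was the highest. NTX-301 raised it by 0.74 (SE 0.041, 1.67-fold, limma adjusted p = 1.02e-08), 55 from the top of the list of all genes, and DAC minus DMSO was 0.46 (SE 0.041, 1.37-fold). NTX-301 exceeded DAC by 0.29 (95% interval 0.20 to 0.38, limma adjusted p = 0.000123). HK1 and HK3 therefore took opposite orders between the drugs in HL-60.

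The MOLM-13 values of HK1 were 11.38, 11.36 and 11.38 in DMSO, 11.61, 11.60 and 11.56 with DAC, and 11.51, 11.49 and 11.47 with NTX-301. The groups again did not overlap, and here the DAC samples were the highest. The rise was 0.22 with DAC (SE 0.027, limma adjusted p = 8.30e-05) and 0.12 with NTX-301 (SE 0.027, limma adjusted p = 0.00377). NTX-301 minus DAC was -0.099 (95% interval -0.16 to -0.041, limma adjusted p = 0.0441), and this last call was lost in 13 of 16 alternatives, among them each of the 9 that left out 1 sample.

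HK2 (NCBI Gene 3099) had the largest share per kb of the 3 hexokinases in all groups. In HL-60 it stood at 13.65, 13.62 and 13.61 in DMSO, 13.66, 13.68 and 13.63 with DAC, and 13.49, 13.56 and 13.52 with NTX-301, with only the NTX-301 samples below the rest. NTX-301 lowered it (change -0.10, SE 0.022, limma adjusted p = 0.00180), a change that shrank to -0.068 with its call kept after quantile normalization. DAC minus DMSO was 0.028 (SE 0.022), and NTX-301 minus DAC was -0.13 (95% interval -0.18 to -0.085, limma adjusted p = 0.000415).

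In MOLM-13 HK2 stepped down over the groups, from 12.83, 12.76 and 12.84 in DMSO to 12.65, 12.67 and 12.61 with DAC and 12.55, 12.52 and 12.53 with NTX-301. DAC lowered it (change -0.16, SE 0.027, limma adjusted p = 0.000558) and so did NTX-301 (change -0.27, SE 0.027, limma adjusted p = 1.00e-05). The DAC change was -0.093 after quantile normalization, with its call kept. The NTX-301 minus DAC difference of -0.11 (95% interval -0.17 to -0.053, limma adjusted p = 0.0284) lost its call in 6 of 16 alternatives, among them the omission of DAC replicate 1 or 2 or of NTX-301 replicate 2 or 3.

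The make-up of the hexokinase values was compared per kb of transcript, since levels of different genes need their lengths. The longest protein-coding transcripts were 3998 bases for HK1, 5772 for HK2 and 3066 for HK3. In HL-60, HK3 made up 12.1% ± 0.42 (SD, n = 3) of the summed value of the 3 hexokinases per kb in DMSO. The share was 31.0% ± 0.51 with DAC and 24.5% ± 0.15 with NTX-301. HK2 made up the largest share in every group, 85.8%, 66.8% and 72.3% in the same order, and HK1 between 2.11% and 3.19%. MOLM-13 had another make-up, with HK1 at 33.6%, 39.0% and 38.9% in the same order of groups, and HK3 at 3.47%, 4.94% and 5.46%. With median in place of longest transcript lengths the HK3 share in HL-60 became 18.9%, 43.2% and 35.4%, and that in MOLM-13 5.53%, 7.75% and 8.53%. The size of the HK3 share depends on the length taken, and its order over the groups was the same with both. The HK1 share in HL-60 did not keep its order. From DMSO to DAC it went from 2.11% to 2.21% with the longest lengths and from 2.17% to 2.03% with median lengths. These shares are descriptions, with no test. Fewer cells making a transcript and less transcript per cell cannot be told apart in such bulk RNA.

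**Figure D2:**
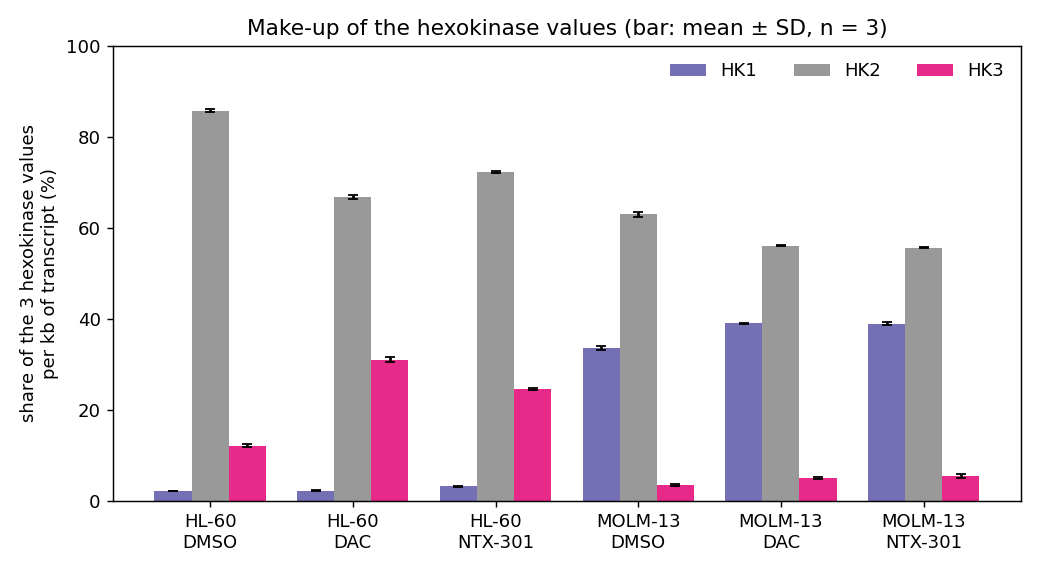
Share of each hexokinase gene in the summed linear value of HK1, HK2 and HK3 per kb of the longest protein-coding transcript (y axis, percent) in the 6 groups (x axis). Bars are the mean ± SD of 3 replicates. HK3 goes from 12.1% in HL-60 with DMSO to 31.0% with DAC, and stays under 6% in MOLM-13.

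PFKL, the liver-type phosphofructokinase subunit, fell in every contrast that was tested within a line. In HL-60 it stood at 14.05, 14.04 and 14.13 in DMSO, at 13.91, 13.90 and 13.89 with DAC, and at 13.68, 13.67 and 13.71 with NTX-301. MOLM-13 showed the same order, with 13.67, 13.68 and 13.65 in DMSO, 13.48, 13.50 and 13.46 with DAC, and 13.38, 13.35 and 13.31 with NTX-301. In neither line did any 2 groups overlap, and the NTX-301 samples were always the lowest.

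NTX-301 lowered PFKL in HL-60 (change -0.39, SE 0.024, 1.31-fold lower, limma adjusted p = 3.12e-08). Its MOLM-13 changes were -0.18 with DAC (SE 0.024, limma adjusted p = 0.000124) and -0.32 with NTX-301 (SE 0.024, limma adjusted p = 2.04e-06), which became -0.086 and -0.20 after quantile normalization with both calls kept. The HL-60 difference with DAC was -0.17 (SE 0.024). NTX-301 minus DAC was -0.21 in HL-60 (95% interval -0.26 to -0.16, limma adjusted p = 1.38e-05) and -0.13 in MOLM-13 (95% interval -0.19 to -0.081, limma adjusted p = 0.00795). Of the 5 members below DAC with NTX-301 in MOLM-13, PFKL alone kept its call in all 16 alternatives.

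PFKP, the platelet-type subunit (NCBI Gene 5214), gave another picture in each line. In HL-60 it stood at 12.57, 12.56 and 12.67 in DMSO, 12.49, 12.45 and 12.48 with DAC, and 12.62, 12.66 and 12.68 with NTX-301. The DAC samples were the lowest, and the NTX-301 samples overlapped DMSO through its replicate 3 alone. The HL-60 differences were -0.13 with DAC (SE 0.029) and 0.055 with NTX-301 (SE 0.029, limma adjusted p = 0.153). The NTX-301 difference became a call without DMSO replicate 3 (0.089, limma adjusted p = 0.0154) and after quantile normalization (0.085, limma adjusted p = 0.0432). NTX-301 exceeded DAC by 0.18 (95% interval 0.12 to 0.24, limma adjusted p = 0.000293).

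The MOLM-13 values of PFKP were 13.15, 13.19 and 13.17 in DMSO, 13.01, 13.04 and 12.99 with DAC, and 13.01, 12.99 and 12.99 with NTX-301. All treated samples lay below DMSO. The changes were -0.15 with DAC (SE 0.023, limma adjusted p = 0.000285) and -0.17 with NTX-301 (SE 0.023, limma adjusted p = 9.58e-05), and were -0.071 and -0.070 after quantile normalization with both calls kept. The difference between the drugs was -0.016 (95% interval -0.065 to 0.033, limma adjusted p = 0.737).

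PFKFB3 (NCBI Gene 5209) rose in MOLM-13. It stood there at 11.33, 11.28 and 11.30 in DMSO, 11.72, 11.67 and 11.74 with DAC, and 11.72, 11.62 and 11.71 with NTX-301, so that all treated samples lay above DMSO. The rise was 0.41 with DAC (SE 0.033, 1.33-fold, limma adjusted p = 5.77e-06) and 0.38 with NTX-301 (SE 0.033, 1.30-fold, limma adjusted p = 5.24e-06). The HL-60 groups overlapped, at 9.60, 9.67 and 9.70 in DMSO, 9.53, 9.64 and 9.63 with DAC, and 9.65, 9.65 and 9.64 with NTX-301. The HL-60 differences were -0.058 with DAC (SE 0.038) and -0.014 with NTX-301 (SE 0.038, limma adjusted p = 0.811).

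PKM and LDHA, which close the pathway, differed by at most 0.30 in any contrast with DMSO. In HL-60 PKM (NCBI Gene 5315) stood at 15.54, 15.57 and 15.59 in DMSO, 15.48, 15.42 and 15.49 with DAC, and 15.30, 15.32 and 15.33 with NTX-301, in 3 groups that did not overlap. NTX-301 lowered it (change -0.25, SE 0.021, 1.19-fold lower, limma adjusted p = 5.60e-07) and DAC minus DMSO was -0.11 (SE 0.021), or -0.061 after quantile normalization. The drugs differed by -0.14 (NTX-301 minus DAC, 95% interval -0.19 to -0.098, limma adjusted p = 0.000147). The values do not separate the PKM1 and PKM2 splice forms, and PKM and LDHA have processed pseudogenes that can take or lend reads.

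In MOLM-13 PKM stood at 15.57, 15.54 and 15.58 in DMSO, 15.61, 15.59 and 15.56 with DAC, and 15.49, 15.44 and 15.51 with NTX-301. Only the NTX-301 samples lay apart, below the rest. The change with DAC was 0.022 (limma adjusted p = 0.535) and with NTX-301 -0.088 (limma adjusted p = 0.0133). Both depended on scaling: after quantile normalization the DAC difference was 0.12 with limma adjusted p = 0.00114, with samples centred on their medians it was -0.015, and the quantile-normalized NTX-301 difference turned to 0.035 with limma adjusted p = 0.193. The NTX-301 call was also lost without DMSO replicate 3 (limma adjusted p = 0.0545) or NTX-301 replicate 2 (limma adjusted p = 0.0693). NTX-301 minus DAC was -0.11 (95% interval -0.16 to -0.055, limma adjusted p = 0.0234), lost in 6 of 16 alternatives, among them the omission of DAC replicate 1 or 2 or any NTX-301 replicate.

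LDHA (NCBI Gene 3939) lay on opposite sides of DMSO with DAC in the 2 lines. In HL-60 it stood at 15.38, 15.39 and 15.33 in DMSO, 15.48, 15.44 and 15.49 with DAC, and 15.33, 15.32 and 15.31 with NTX-301. In MOLM-13 it stood at 15.54, 15.50 and 15.54, then 15.35, 15.32 and 15.31, then 15.28, 15.19 and 15.21. The DAC samples were the highest of HL-60, whereas every treated MOLM-13 sample lay below DMSO.

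DAC minus DMSO for LDHA was 0.10 in HL-60 (SE 0.020). In MOLM-13 the changes were -0.20 with DAC (SE 0.027, limma adjusted p = 0.000163) and -0.30 with NTX-301 (SE 0.027, limma adjusted p = 6.24e-06), or -0.096 and -0.18 after quantile normalization with both calls kept. NTX-301 in HL-60 gave -0.046 (SE 0.020, limma adjusted p = 0.0836), which became a call without DMSO replicate 3 (-0.062, limma adjusted p = 0.0268) and with each sample centred on its median (-0.074, limma adjusted p = 0.0112), and which turned to 0.017 after quantile normalization (limma adjusted p = 0.501). The NTX-301 minus DAC difference was -0.15 in HL-60 (95% interval -0.19 to -0.11, limma adjusted p = 5.60e-05). The MOLM-13 difference of -0.10 (95% interval -0.16 to -0.041, limma adjusted p = 0.0452) was lost in 12 of 16 alternatives, 8 of them the omission of 1 sample.

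**Figure D3:**
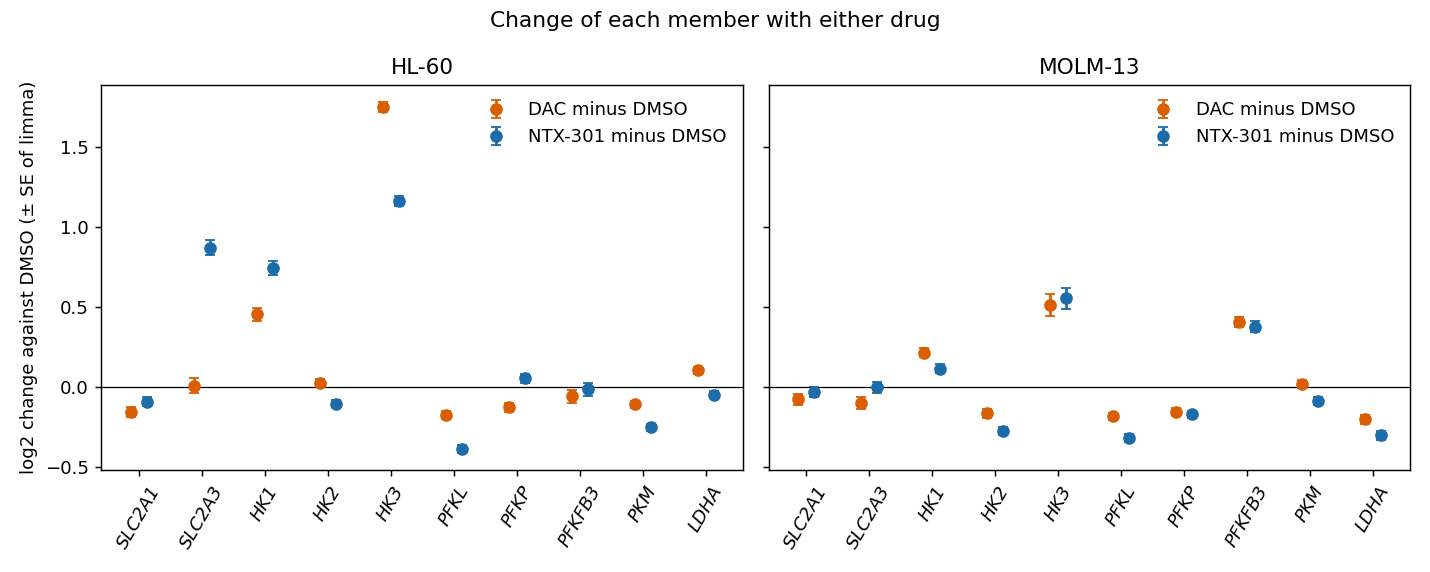
Log2 change against DMSO (y axis, ± SE of limma) of the 10 genes in pathway order (x axis) with DAC or NTX-301 in HL-60 (left) and MOLM-13 (right). HK3 has the highest point in both panels, 1.75 with DAC in HL-60 and 0.55 with NTX-301 in MOLM-13, and SLC2A3 in HL-60 stands at 0.87 with NTX-301 against 0.010 with DAC.

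Between the drugs, NTX-301 minus DAC was tested for 9 members in HL-60 and for 10 in MOLM-13. In HL-60, 3 were higher with NTX-301 (HK1, PFKP and SLC2A3) and 4 lower (HK2, PFKL, PKM and LDHA), where 30.4% of all genes (15.4% higher and 15% lower) and 42.1% of those at least as high as the lowest member passed. PFKFB3 differed by 0.043 (95% interval -0.039 to 0.13) and SLC2A1 by 0.063 (95% interval 0.0017 to 0.13), with limma adjusted p = 0.443 and 0.115. In MOLM-13, 5 members were lower with NTX-301 (HK1, HK2, PFKL, PKM and LDHA) and none higher, where 7.42% of all genes (3.01% higher and 4.41% lower) and 10.8% of those at least as high as the lowest member passed. That count did not hold: leaving out any 1 of the 9 samples left between 1 and 3 members called, and 1 without DAC replicate 1 or 2 or NTX-301 replicate 2 or 3. SLC2A3 and SLC2A1 in MOLM-13 differed by 0.098 (95% interval 0.022 to 0.17, limma adjusted p = 0.116) and 0.047 (95% interval -0.025 to 0.12, limma adjusted p = 0.437), and PFKFB3 by -0.029 (95% interval -0.10 to 0.044, limma adjusted p = 0.662). Since the doses are not known to match, these compare the treatments as applied.

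The NTX-301 effect was compared between the lines for the 9 members other than HK3, by an interaction term over all 18 samples and 15474 genes. It differed for 7 of them, where 40% of all genes passed (17.6% higher and 22.4% lower). For this contrast no share was counted among genes as high as the members. SLC2A3 had the widest gap, -0.87 (MOLM-13 minus HL-60, limma adjusted p = 2.41e-09), and HK1 followed with -0.63 (limma adjusted p = 1.33e-08). The effect was also lower in MOLM-13 for LDHA (-0.25, limma adjusted p = 7.36e-06), PFKP (-0.22, limma adjusted p = 7.72e-05) and HK2 (-0.17, limma adjusted p = 0.000446). It was higher there for PFKFB3 (0.39, limma adjusted p = 6.50e-06) and PKM (0.16, limma adjusted p = 0.000632). PFKL differed by 0.070 (95% interval -0.00080 to 0.14, limma adjusted p = 0.109), which became a call of 0.15 (limma adjusted p = 0.00112) after quantile normalization, and SLC2A1 by 0.062 (95% interval -0.030 to 0.15, limma adjusted p = 0.278).

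The corresponding DAC differences are given without a test. MOLM-13 minus HL-60 was -1.23 for HK3, 0.46 for PFKFB3, -0.30 for LDHA, -0.24 for HK1 and -0.19 for HK2. Quantile normalization gave -0.15 for HK1 and -0.12 for HK2. PKM stood at 0.13, and the other 4 members lay between -0.11 (SLC2A3) and 0.079 (SLC2A1). Of all genes, 30% passed the threshold in this contrast (12.1% higher and 17.9% lower). For NTX-301 the HK3 difference was -0.61. The lines appear to have been normalized apart, so levels are set side by side only: in DMSO, HK1 averaged 7.75 in HL-60 and 11.37 in MOLM-13, SLC2A3 8.94 and 11.87, PFKFB3 9.66 and 11.30, and HK3 9.89 and 7.71.

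The genes whose pair of changes lay nearest to that of HK3 were listed by Euclidean distance over the DAC and NTX-301 changes, taken over genes whose mean log2 value reached 5. In HL-60, of 13836 such genes over 9 samples, these were IKZF3 (changes 1.38 and 1.03), IKZF2 (1.46 and 1.46), CR1 (1.19 and 1.17), THSD7A (1.17 and 1.12) and KCNH2 (1.28 and 1.64), at distances of 0.39 to 0.67. IKZF2 and IKZF3 encode zinc finger factors of the Ikaros family, and CR1 a complement receptor. In MOLM-13, of 14624 genes, SRC, SH3TC1, GAS7, PLK2 and LOC105372698 lay at distances of 0.013 to 0.021. The 2 lists shared no gene.

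Among the remaining enzymes of glycolysis more were lower than higher of those that passed the threshold. This list and those that follow were fitted on the deposited scaling only. With centred samples the split of calls over all genes moved, as given at the end. Quantile normalization shrank or reversed falls of abundant members. With NTX-301 in MOLM-13, PFKL went from -0.32 to -0.20, LDHA from -0.30 to -0.18 and PKM from -0.088 to 0.035. The effect of either scaling on the lists was not tested, so their excess of lower calls holds for the deposited scaling only. Shares given beside the lists are over all genes, whatever their level. Of the 15 tested in HL-60, NTX-301 raised 2 and lowered 8 (median -0.065, against 0.00082 over all genes), where 18.3% of all genes were called higher and 19.2% lower. The muscle-type subunit gene PFKM rose there by 0.29 (limma adjusted p = 0.000162), while PGAM1, a phosphoglycerate mutase, changed by -0.15 (limma adjusted p = 5.42e-05) and GPI, glucose phosphate isomerase, by -0.13 (limma adjusted p = 5.60e-05). With DAC in HL-60, 1 was higher and 4 lower (median -0.012), against 11.6% and 12.6% of all genes. In MOLM-13, with 17 tested, DAC raised 3 and lowered 7 (median 0.0078), against 15.4% and 21.2% of all genes, and NTX-301 raised 1 and lowered 8 (median -0.080), against 20.3% and 24.8%. DAC raised PFKFB4, a relative of PFKFB3, by 0.29 (limma adjusted p = 0.00373), and NTX-301 changed PGAM1 by -0.35 (limma adjusted p = 1.96e-06) and TPI1, triose phosphate isomerase, by -0.30 (limma adjusted p = 4.84e-06). Several of these enzymes have processed pseudogenes, which makes their values uncertain in the same way.

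Lactate and pyruvate genes that passed were also lower more often than higher. Of 13 tested in HL-60, none was higher and 4 lower with DAC, where 24.2% of all genes passed (11.6% higher and 12.6% lower). NTX-301 raised 1 and lowered 7, where 37.4% passed (18.3% higher and 19.2% lower). Of 14 in MOLM-13, DAC raised 1 and lowered 8 (median -0.13), where 36.6% of all genes passed (15.4% higher and 21.2% lower). NTX-301 raised 0 and lowered 10 (median -0.18), where 45.1% passed (20.3% higher and 24.8% lower). The lactate exporter SLC16A3 (MCT4) changed by -0.43 with NTX-301 in HL-60 (limma adjusted p = 1.20e-07) and the kinase PDK1, which holds pyruvate dehydrogenase inactive, by -0.22 (limma adjusted p = 2.74e-06). In MOLM-13 the monocarboxylate transporter SLC16A1 (MCT1) changed by -0.36 with DAC (limma adjusted p = 6.53e-06) and -0.46 with NTX-301 (limma adjusted p = 8.43e-07), and DLAT, a subunit of pyruvate dehydrogenase, by -0.33 (limma adjusted p = 3.89e-05) and -0.45 (limma adjusted p = 2.73e-06).

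The other sugar transporters differed between the lines in number and direction. In MOLM-13, 4 of 8 rose and none fell with either drug (medians 0.15 and 0.15), where 15.4% of all genes were higher with DAC and 20.3% with NTX-301, among them SLC2A6 with DAC (0.40, limma adjusted p = 0.000563) and SLC2A9 with NTX-301 (0.46, limma adjusted p = 4.62e-05). In HL-60, with 5 tested, DAC gave none higher and 1 lower, and NTX-301 raised 2 and lowered 2 (24.2% and 37.4% of all genes passed). The fructose transporter SLC2A5 changed by -0.25 with NTX-301 there (limma adjusted p = 0.000146), and its DAC difference was -0.38. Among 18 genes of side branches (pentose phosphate, glycogen and related routes), NTX-301 raised 3 and lowered 9 in each line, and DAC gave 4 higher and 3 lower in HL-60 and raised 3 and lowered 6 in MOLM-13. Over all genes 37.4% (HL-60) and 45.1% (MOLM-13) passed with NTX-301, and 24.2% and 36.6% with DAC. Transaldolase (TALDO1) changed by -0.41 with NTX-301 in HL-60 (limma adjusted p = 2.36e-09) and by -0.25 in MOLM-13 (limma adjusted p = 1.69e-05), and transketolase (TKT) by -0.29 (limma adjusted p = 3.22e-07) and -0.18 (limma adjusted p = 9.39e-05).

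Regulators of glycolysis moved both ways. NTX-301 raised 1 and lowered 5 of 11 in HL-60, and raised 5 and lowered 4 of 13 in MOLM-13, where 37.4% and 45.1% of all genes passed. DAC gave 1 higher and 2 lower in HL-60, and raised 4 and lowered 4 in MOLM-13, where 24.2% and 36.6% passed. MYC, which drives many glycolysis genes, changed by -0.25 with NTX-301 in HL-60 (limma adjusted p = 2.47e-07) and by -0.15 in MOLM-13 (limma adjusted p = 0.00104), and by -0.13 with DAC in MOLM-13 (limma adjusted p = 0.00369). HIF1A, the hypoxia factor, changed by -0.23 with DAC in MOLM-13 (limma adjusted p = 0.000694). TXNIP, a brake on glucose uptake, rose with NTX-301 by 0.18 in HL-60 (limma adjusted p = 3.57e-05) and by 0.27 in MOLM-13 (limma adjusted p = 0.000193). EGLN1 had the lowest adjusted p of this list with NTX-301 in HL-60 (change -0.39, limma adjusted p = 5.08e-08). TIGAR changed with NTX-301 by -0.30 in HL-60 (limma adjusted p = 1.69e-05) and rose by 0.19 in MOLM-13 (limma adjusted p = 0.00136). DAC raised MLXIP by 0.19 in MOLM-13 (limma adjusted p = 0.00347).

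**Figure D4:**
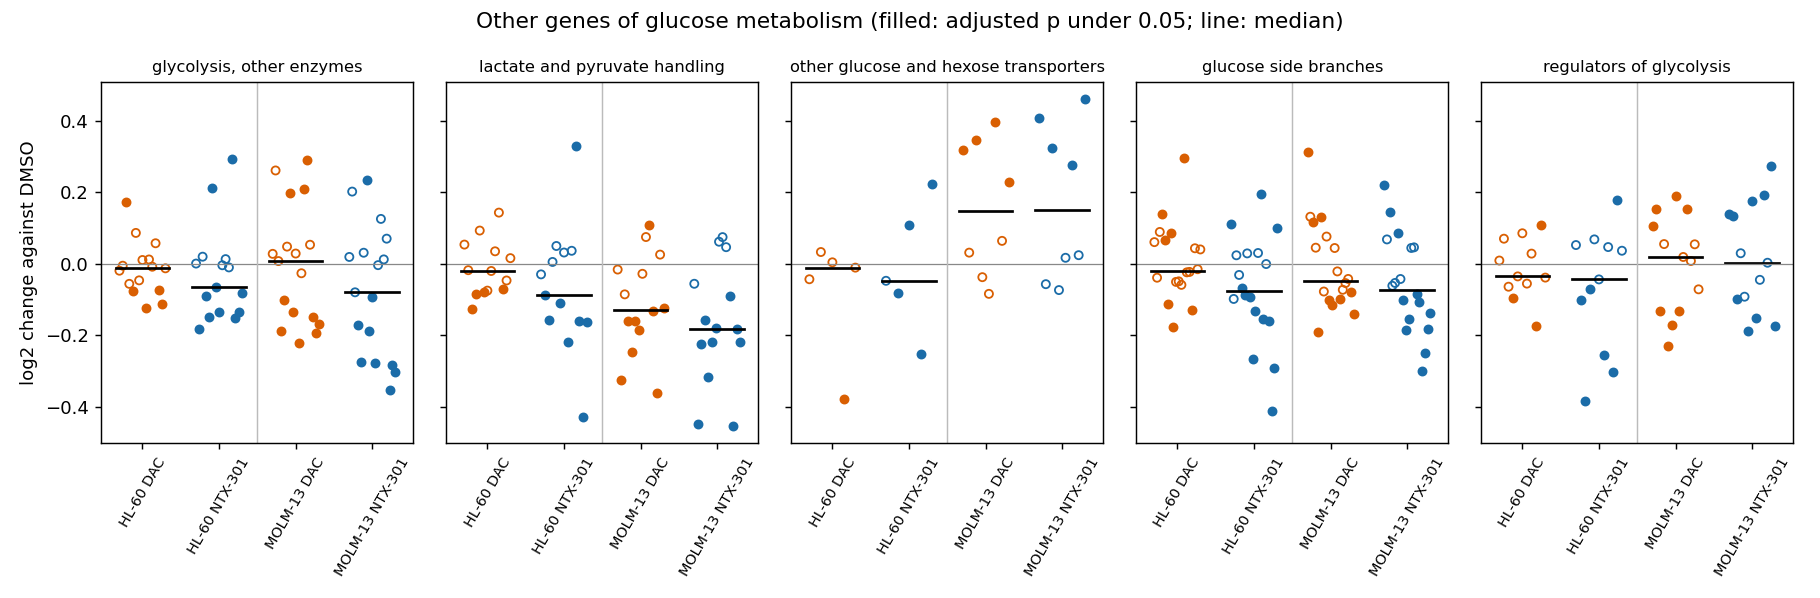
Log2 change against DMSO (y axis) of the genes in 5 further lists of glucose metabolism, with DAC or NTX-301 in each line (x axis). Each point is a gene, filled where the limma adjusted p was under 0.05, and the line is the median, which lies lowest for lactate and pyruvate genes with NTX-301 in MOLM-13 (-0.18) and highest for the other transporters in MOLM-13 (0.15).

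Myeloid maturation genes were counted beside HK3, and their part in its change was not tested. With NTX-301 in HL-60, where HK3 was higher by 1.16, more of them fell than rose, and in the other contrasts with DMSO more were higher than lower. Of 20 such genes 18 were listed in each line, and FCN1 and CD14 were not. The list mixes genes of different stages, such as the primary granule gene PRTN3 and ITGAM of maturing cells. These 2 moved in opposite directions with NTX-301 in HL-60, so the counts and the summed value do not measure maturation. With DAC in HL-60, 7 were higher and 2 lower (median 0.048), where 24.2% of all genes passed (11.6% higher and 12.6% lower). In MOLM-13 DAC raised 12 and lowered 1 (median 0.16), where 36.6% passed (15.4% higher and 21.2% lower). NTX-301 raised 4 and lowered 11 in HL-60 (median -0.18), where 37.4% passed (18.3% higher and 19.2% lower). It raised 8 and lowered 3 in MOLM-13 (median 0.094), where 45.1% passed (20.3% higher and 24.8% lower). The log2 of their summed value ran from 19.80 to 19.86 in DMSO, 19.96 to 19.99 with DAC and 19.41 to 19.44 with NTX-301 in HL-60. In MOLM-13 it ran from 18.58 to 18.59, from 18.88 to 18.90 and from 18.56 to 18.65. In HL-60 the highest values in this sum were those of MPO and PRG2, 18.71 and 18.23 in DMSO. PRG2, an eosinophil granule gene, changed by -0.53 with NTX-301 there (limma adjusted p = 2.75e-10), and its DAC difference was 0.44. In MOLM-13 PRG2 changed by -0.16 with DAC (limma adjusted p = 0.00728) and -0.46 with NTX-301 (limma adjusted p = 4.21e-06). Of the 12 genes raised by DAC there, MPO (0.72, limma adjusted p = 4.07e-08) and LYZ (0.78, limma adjusted p = 1.50e-07) had the lowest adjusted p. EPX, the eosinophil peroxidase, went the same way as HK3 in HL-60, from 8.52 in DMSO to 11.22 with DAC (difference 2.70) and 10.55 with NTX-301 (difference 2.03). For DAC there, EPX placed 1 and HK3 placed 2 from the top. That contrast chose the set, and the list was made with earlier results known, so this likeness is a description only. EPX averaged 9.86 (DMSO), 10.24 (DAC) and 9.92 (NTX-301) in MOLM-13. Its NTX-301 samples overlapped DMSO there, whereas HK3 rose by 0.55 with that drug. The primary granule gene PRTN3 changed by -0.76 with NTX-301 in HL-60 (limma adjusted p = 7.04e-10), and ITGAM, the CD11b integrin of maturing myeloid cells, rose by 0.43 there (limma adjusted p = 5.89e-06) and by 0.71 in MOLM-13 (limma adjusted p = 1.82e-07).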

How the data were processed

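RNA of 18 samples was measured by stranded total RNA sequencing. Per the submitters' processing notes, FastQC, Trimmomatic 0.38, HISAT2 and StringTie were used with build hg19. The counting of reads, the annotation, the use of strand and the normalization method are not given in the sources used here. The authors deposited 1 normalized log2 value per gene and sample, a unit read from the values. Read depth per sample is unknown. The values of low genes are drawn together: the median range over the 9 samples of a line was 0.021 in HL-60 and 0.027 in MOLM-13 for a mean of 0 to 3, against 0.21 and 0.26 for a mean of 8 to 12, so changes of low genes are understated. Because the gene sets differ between lines, each line appears to have been normalized apart.

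A gene entered the tests if 3 or more samples had a linear value of 1 or more, which left 17046 for HL-60 and 17475 for MOLM-13. All 10 members passed. Differences were tested with limma 3.58.1 (R 4.3.3, two-sided, eBayes with a mean-variance trend) on the 9 samples of a line, with 6 residual degrees of freedom, and between lines on all 18. The Benjamini-Hochberg adjustment ran over every gene in the fit, the threshold was 0.05, and the 95% intervals are unadjusted. Genes were matched by symbol. The members and lists were chosen with earlier results of these data known. Named genes were the 10 members, up to 2 called higher and 2 called lower per other list and drug-against-DMSO contrast by lowest adjusted p, and the 5 genes nearest to HK3; the text gives a selection, and SLC2A14 and the marker genes are named as a paralog and as checks. Hexokinase transcript lengths were taken from the GENCODE v29 transcripts supplied as reference, and the shares were a choice made after seeing the data. In simulated data, with 17046 genes as in HL-60 limma recovered 91.25% of changes of 0.25 and 100% of 0.5 (5 false calls), and with 17475 genes as in MOLM-13 it recovered 67.5% and 97.5% (13 false calls). The simulated noise was normal and independent, and far fewer genes were changed than passed in the real contrasts with DMSO. Recovery and false calls can therefore differ in the real data. Alternatives were the scaling (centring, quantile normalization), the trend, the filter, the samples in the fit, a replicate block and leaving out each sample.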

Additional observations from a re-analysis of the deposited data

Results flagged for a closer look

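The NTX-301 effect differed between the lines by the interaction test in limma for 7 members. MOLM-13 minus HL-60 was -0.63 for HK1, -0.17 for HK2, -0.22 for PFKP, 0.39 for PFKFB3, 0.16 for PKM, -0.25 for LDHA and -0.87 for SLC2A3 on the log2 scale. Line and stated dose cannot be told apart in these values. For LDHA with DAC, all HL-60 samples lay above DMSO and all MOLM-13 samples below it, a difference of -0.30 that was not tested.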

How the results depend on the processing

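Of 57 tested member results, 45 kept their side of the threshold under every alternative, 39 of them with their direction too, and the report gives the other 12 beside their values. A single called result reversed: PKM with NTX-301 in MOLM-13 was -0.088 as deposited and 0.035 after quantile normalization. A further 8 results that were not called changed sign. For NTX-301 against DMSO, LDHA in HL-60 became 0.017 and in MOLM-13 SLC2A1 became 0.035 and SLC2A3 0.060 after quantile normalization, as did PFKP at 0.0013 for NTX-301 against DAC in MOLM-13. PKM with DAC in MOLM-13 became -0.015 after centring. With 1 sample left out, PFKFB3 with NTX-301 in HL-60 ranged from -0.043 to 0.0082 (above 0 without DMSO replicate 3), and SLC2A3 with NTX-301 in MOLM-13 from -0.031 to 0.027 (above 0 without DMSO replicate 2 or 3 or NTX-301 replicate 3). For NTX-301 against DAC in MOLM-13, PFKFB3 then ranged from -0.048 to 0.0021 (above 0 without NTX-301 replicate 2) and HK3 from -0.025 (without NTX-301 replicate 3) to 0.092. The cause was not tested for any of these. Over all genes, 142 of the alternative counts lay within 1.5 times the main count and 4 did not, all for NTX-301 against DAC in MOLM-13. There 1297 genes passed, 817 with a replicate block and between 462 (without NTX-301 replicate 3) and 1322 with 1 sample left out, with 767 without DAC replicate 1 and 479 without NTX-301 replicate 2. Replicate numbers did not pair the samples: deviations of same-numbered samples correlated at -0.057 to 0.12 in HL-60 and -0.16 to 0.11 in MOLM-13, as those of other numbers did (-0.12 to 0.11 and -0.12 to 0.16).

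With samples centred on their medians the split of higher and lower calls moved: NTX-301 in HL-60 gave 2310 and 5400 (3115 and 3265 as deposited), NTX-301 against DAC there 1818 and 4860 (2622 and 2563), DAC in MOLM-13 1960 and 5731 (2689 and 3705), NTX-301 in MOLM-13 2735 and 5760 (3543 and 4337), NTX-301 against DAC in MOLM-13 657 and 689 (526 and 771), and the DAC effect between lines 1359 and 4382 (1871 and 2767). Read depth is unknown, so precision rests on the spread of 3 replicates.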
